A study of Mus musculus with 16 samples.

Results

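Genes of alveolar type 1 cells were examined in the chromatin accessibility of small cell lung cancer (SCLC) cells. The 10 genes were *Ager*, *Pdpn*, *Aqp5*, *Clic5*, *Hopx*, *Cav1*, *Akap5*, *Emp2*, *Rtkn2* and *Gprc5a*. To each gene were assigned all ATAC-seq peaks of the deposited lists whose centre lay nearest to a transcription start site of that gene among all protein-coding genes. This assignment gave 83 peaks of the 80367 listed in all, and 10 of 21827 annotated protein-coding genes. Cells came from the pooled lung tumors of each *TKO*;*Hes1* GFP/+ mouse. In this model intra-tracheal Ad-CMV-Cre deletes *Rb*, *p53* and *p130*, and 1 *Hes1* allele carries GFP. Both sorted populations therefore share these deletions and the reporter allele, and differ in the reporter signal: GFPhigh cells are the non-NE cells and GFPneg cells the neuroendocrine (NE) cells. The CMV promoter can drive Cre in any infected lung cell, and per the study most tumors of this model start in non-NE epithelium. Tumors were induced in young adult mice and taken some months later. The design held 4 pairs of populations from 3 mice, 1 of which gave 2 pairs, as 8 libraries on 2 lanes each.

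ATAC-seq marks open chromatin, since the Tn5 transposase inserts sequencing adaptors where DNA is accessible. A peak is called opened here when it is on the deposited list of sites more accessible in GFPhigh cells, and closed when it is on the list of sites less accessible there. The lists give each peak a mean normalized count, which is the mean over all samples of the comparison, and no value per library. Library depth is therefore unknown, and no test over mice, SD or n can be given for any peak. Sites outside both lists were not analysed here.

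Alveolar type 1 cells are the very flat epithelial cells that cover most of the gas exchange surface of the lung, where they lie against the capillaries. They share a progenitor with the cuboidal alveolar type 2 cells, which make surfactant and can replace them after injury. Transcription factors of the NKX2, TEAD, GATA and KLF families and the coactivators YAP and TAZ are known to act in their differentiation. NE cells are rare cells of the airway lining and carry a different program of secretory and neuronal genes.

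The 200 bases at the centre of the opened peak with the highest mean count of each gene are printed here, where they hold no annotated UTR, to show a main site of each account below. A mean count grows with the width of a peak, and per 100 bp another opened peak was higher at *Emp2* and *Gprc5a*. The closed peaks with the highest count at *Cav1* and *Emp2* are added for contrast and were chosen after their values were seen. Sequences are those of the plus strand of the RefSeq genome GRCm38.p6 (mm10), 5′ to 3′. Capitals mark exact matches to short motif cores on either strand, which are spelled out with their shares below. The *Ager* window is chr17:34597629-34597828, the *Pdpn* window chr4:143296220-143296419, the *Clic5* window chr17:44239321-44239520, the *Hopx* window chr5:77155007-77155206, the *Akap5* window chr12:76318733-76318932, the *Emp2* window chr16:10349849-10350048 and the *Gprc5a* window chr6:135066853-135067052. For *Cav1* only the 50 bases ahead of the gene are shown, at chr6:17306285-17306334. The closed windows are chr6:17315948-17316147 at *Cav1* and chr16:10336188-10336387 at *Emp2*.
Ager opened: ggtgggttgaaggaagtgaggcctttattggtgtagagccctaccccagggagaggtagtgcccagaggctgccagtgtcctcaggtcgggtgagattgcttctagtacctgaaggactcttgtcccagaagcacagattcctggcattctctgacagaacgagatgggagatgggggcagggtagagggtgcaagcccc
Pdpn opened: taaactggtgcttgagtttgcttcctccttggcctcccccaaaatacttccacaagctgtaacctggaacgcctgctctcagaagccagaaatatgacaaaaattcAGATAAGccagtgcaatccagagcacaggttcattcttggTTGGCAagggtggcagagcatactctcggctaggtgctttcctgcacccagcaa
Clic5 opened: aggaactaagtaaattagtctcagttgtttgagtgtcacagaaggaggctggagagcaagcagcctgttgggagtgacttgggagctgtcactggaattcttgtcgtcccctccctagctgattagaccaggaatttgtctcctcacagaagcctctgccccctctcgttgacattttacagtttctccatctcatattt
Hopx opened: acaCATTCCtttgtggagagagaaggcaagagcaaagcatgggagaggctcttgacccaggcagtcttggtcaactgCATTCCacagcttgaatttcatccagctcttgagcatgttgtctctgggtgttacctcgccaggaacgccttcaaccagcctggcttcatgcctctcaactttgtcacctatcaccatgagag
Cav1 opened: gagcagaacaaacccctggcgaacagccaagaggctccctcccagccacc
Akap5 opened: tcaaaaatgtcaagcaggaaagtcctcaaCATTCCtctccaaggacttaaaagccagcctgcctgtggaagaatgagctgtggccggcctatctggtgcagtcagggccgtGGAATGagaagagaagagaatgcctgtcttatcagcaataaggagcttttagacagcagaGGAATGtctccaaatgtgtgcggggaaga
Emp2 opened: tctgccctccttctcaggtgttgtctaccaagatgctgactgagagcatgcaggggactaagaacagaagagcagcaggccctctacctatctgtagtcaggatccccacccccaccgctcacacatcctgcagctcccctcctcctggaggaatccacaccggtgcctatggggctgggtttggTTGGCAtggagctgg
Gprc5a opened: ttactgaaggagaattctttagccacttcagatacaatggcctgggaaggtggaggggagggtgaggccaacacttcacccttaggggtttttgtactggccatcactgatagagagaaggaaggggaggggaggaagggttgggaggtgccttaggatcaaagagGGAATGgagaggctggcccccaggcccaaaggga
Cav1 closed: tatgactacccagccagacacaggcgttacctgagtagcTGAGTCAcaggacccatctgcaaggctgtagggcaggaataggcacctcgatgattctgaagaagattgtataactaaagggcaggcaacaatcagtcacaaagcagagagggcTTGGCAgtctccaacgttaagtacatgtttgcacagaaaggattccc
Emp2 closed: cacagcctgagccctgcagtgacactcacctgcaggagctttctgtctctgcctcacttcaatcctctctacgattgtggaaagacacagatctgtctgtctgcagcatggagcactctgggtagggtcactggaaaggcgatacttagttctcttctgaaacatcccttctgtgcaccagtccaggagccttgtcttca
The *Hopx* window held 2 and the *Akap5* window 3 TEAD cores, and the *Gprc5a* window 1. The *Pdpn* window held a GATA and an NFI core, the *Emp2* opened window an NFI core, and the closed *Cav1* window an AP-1 and an NFI core. None of the 8 cores searched was found in the *Ager*, *Clic5*, opened *Cav1* and closed *Emp2* windows. The windows of *Aqp5* and *Rtkn2* lie wholly in annotated UTR and are not printed.

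Of the 83 peaks, 70 were opened and 13 were closed in GFPhigh cells. The opened share was 84.3% (Wilson 95% interval 75.02 to 90.6%), beside a background of 50.8% opened among all listed peaks. In bulk samples, a larger share of cells with an open site and a more open site in each cell cannot be told apart. Each of the 10 genes had at least 1 listed peak, where 66.8% of all protein-coding genes had one. *Ager*, *Aqp5*, *Clic5*, *Akap5* and *Gprc5a* had opened peaks only, which is 5 of 10 genes beside 36.8% of all genes with a listed peak. *Pdpn*, *Hopx*, *Emp2* and *Rtkn2* had more opened than closed peaks, so that the opened peaks were in the majority at 9 of 10 genes, beside 54.9% of all genes with a peak. *Cav1* alone had more closed peaks than opened ones. The intervals cover counting error only, and peaks of 1 gene share their locus and are not replicates of the populations.

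**Figure D1:**
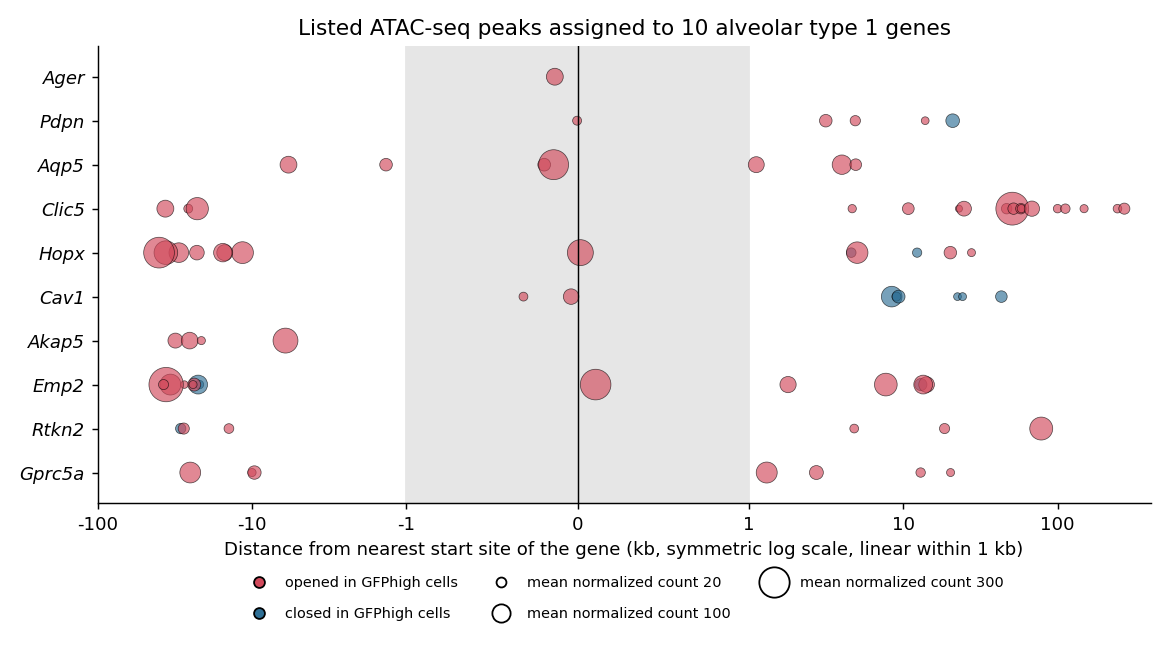
Each circle is a listed peak of the gene named on the left, placed by the distance of its centre from the nearest start site of that gene in kb (symmetric log scale, linear inside the grey band of 1 kb on either side), with negative distances upstream. Red marks opened and blue closed peaks in GFPhigh cells, and the area of a circle grows with the mean normalized count. No closed peak lies in the grey band, and 6 of the 13 closed peaks belong to *Cav1*.

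Near the start sites the genes had 8 peaks within 1 kb, and all 8 were opened (Wilson interval 67.6 to 100%), beside 74.3% of all listed peaks at that distance. These belonged to 6 of the 10 genes, *Ager*, *Pdpn*, *Aqp5*, *Hopx*, *Cav1* and *Emp2*, while 26.7% of all protein-coding genes had an opened promoter peak. A closed promoter peak was found at 0 of the 10 genes and at 8.46% of all genes. Away from the start sites, 62 of 75 peaks were opened, or 82.7% (Wilson interval 72.6 to 89.6%), beside 47.3% of all listed peaks over 1 kb from a protein-coding start.

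The opened peaks were spread over introns and the flanks of the genes. By their centres, 32 of the 70 lay in an intron (45.7%), 29 were intergenic (41.4%, Wilson interval 30.6 to 53.1%), 8 were promoter peaks (11.4%, Wilson interval 5.91 to 20.96%) and 1 was in an exon. Introns of any gene count here, and those of the *Akap5* peaks all belong to *Mthfd1*. Among all opened peaks, introns held 45.05%, intergenic sequence 29.1% and promoters 22.3%, where a start site of any gene type counts as a promoter. The promoter share of the whole list lies above the interval of the members and its intergenic share below theirs, while the intron shares were alike in size. A distance of 1 to 10 kb separated 17 of them from the nearest start of their gene, 10 to 50 kb separated 34, and over 50 kb separated 11. They fell about evenly to either side, with 33 upstream and 37 downstream of the start. Of the 13 closed peaks, 11 were intronic (84.6%, Wilson interval 57.8 to 95.7%) and 2 intergenic, beside 51.5% in introns among all closed peaks.

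The height of the opened peaks was close to that of the list. Their mean normalized count had a median of 46.2 (interquartile range 17.2 to 113), beside 40.7 (18.5 to 102) for all opened peaks. Per 100 bp of peak the medians were 15.02 and 14.4. The closed peaks had a median count of 23.2, beside 25.8 for all closed peaks, and 10.9 beside 10.8 per 100 bp. Their width differed in the same way as in the lists, with medians of 334.5 bp for the opened and 201 bp for the closed peaks of these genes. The opened share was 76.9% (20 of 26, Wilson interval 57.9 to 89.0%) beside 42.3% for mean counts under 20, and 80.0% (16 of 20, 58.4 to 91.9%) beside 44.96% from 20 to 50. It was 93.3% (14 of 15, 70.2 to 98.8%) beside 54.5% from 50 to 100, and 90.9% (20 of 22, 72.2 to 97.5%) beside 74.1% from 100 upward. The background lay below the interval in the lower 3 ranges of height and within it for the highest peaks.

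**Figure D2:**
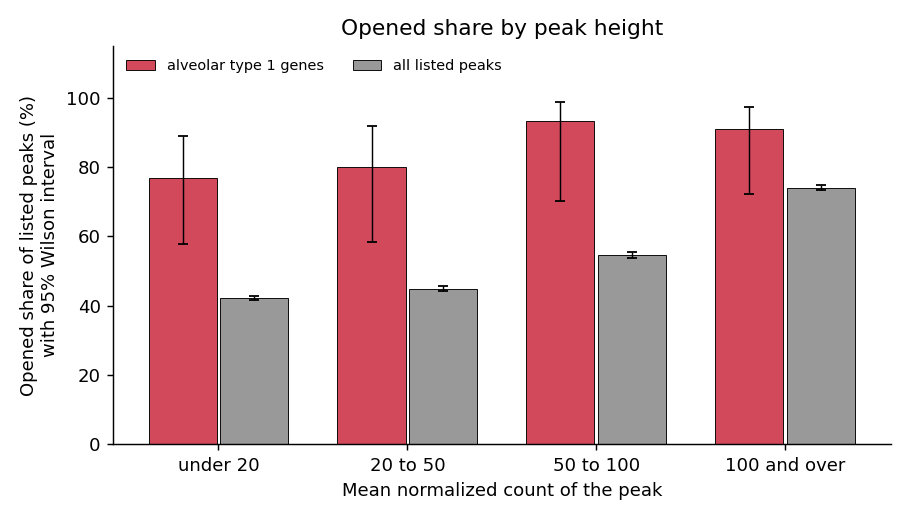
Bars give the opened share of listed peaks in percent, in red for the alveolar type 1 genes and in grey for all listed peaks, within 4 ranges of mean normalized count, with 95% Wilson intervals as error bars. The gap between the bars is widest from 50 to 100 (93.3% against 54.5%) and narrowest at 100 and over (90.9% against 74.1%), where the interval of the red bar contains the grey value.

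Among the surface and membrane proteins, *Ager* encodes the receptor for advanced glycation end products, which sits in the basal membrane of alveolar type 1 cells. Its only peak was an opened promoter peak at chr17:34597529-34597929, centred 133 bp upstream of the start site, with a mean normalized count of 83.9. The gene lies among close neighbours, so the stretch of chromosome nearest to its start sites is only 5.49 kb long. *Pbx2* and *Rnf5*, on either side of it, had 1 and 2 peaks, all opened.

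*Pdpn* encodes podoplanin, a mucin-like glycoprotein of the apical membrane that lymphatic endothelium and some fibroblasts also carry. It had 4 opened peaks and 1 closed peak. The opened promoter peak (chr4:143299493-143299640, centred 3 bp upstream) had a mean count of 14.1. The other opened peaks had 40.8, 23.1 and 7.36, at 3.143, 4.884 and 13.86 kb downstream in an intron. The closed peak, at chr4:143278392-143278765 and 20.884 kb downstream in an intron, was the highest of the gene with a mean count of 50.5. Per 100 bp it was close to the highest opened peak of the gene, at 13.5 beside 13.3.

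*Aqp5* encodes a water channel of the apical membrane that is also found in salivary and airway glands. All 7 peaks were opened, within a span of 11.466 kb, and this was the densest of the 10 loci with 61.4 opened peaks per 100 kb of chromosome nearest to its start sites, beside 1.498 over the genome. The promoter peak at chr15:99590773-99591249 had a mean count of 292, and a further peak at chr15:99590501-99590672 had 42.0. The main promoter peak was the highest of all 83 per length, at 61.2 per 100 bp, and 80.7% of its bases were G or C. Upstream, mean counts were 83.5 at 5.793 kb and 41.2 at 1.351 kb, and downstream they were 73.5 at 1.114 kb, 115.4 at 3.998 kb and 33.1 at 4.916 kb. The flanking aquaporin genes *Aqp2* and *Aqp6*, which serve mainly in kidney, had 3 and 2 peaks, all opened as well.

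*Emp2* encodes a tetraspan membrane protein that is abundant in the distal lung. It had 11 opened and 3 closed peaks, and 3.02% of all protein-coding genes had at least as many opened ones. The promoter peak (chr16:10313596-10314130) had a mean count of 306, or 57.2 per 100 bp. The highest peak of all 83 lay 35.981 kb upstream at chr16:10349585-10350312, with a mean count of 389 and 53.4 per 100 bp. Its neighbour at 33.733 kb upstream had a mean count of 135, and the highest of the 4 opened peaks in its own introns, 7.701 kb downstream, had 162. Of its closed peaks, 2 stood 21.887 and 22.32 kb upstream with mean counts of 11.6 and 108, and 1 stood 12.986 kb downstream with 37.6. The closed peak downstream was 138 bp from the next opened peak, and the higher closed peak upstream was 920 bp from one, so sites of opposite direction stood side by side.

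*Gprc5a* encodes an orphan G protein-coupled receptor that retinoic acid induces and that is prominent in lung epithelium. Its 7 peaks were all opened and none lay within 1 kb of the start site. The highest were at chr6:135066726-135067179, 1.302 kb downstream of the start site with a mean count of 137, and at chr6:135040249-135040846, 25.103 kb upstream with 134. Per length the highest was the intronic peak at 2.732 kb, with 35.8 per 100 bp and a mean count of 53.0. The other 4 had mean counts between 8.75 and 48.6, and 1 of them was the only exonic peak of the 83.

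**Figure D3:**
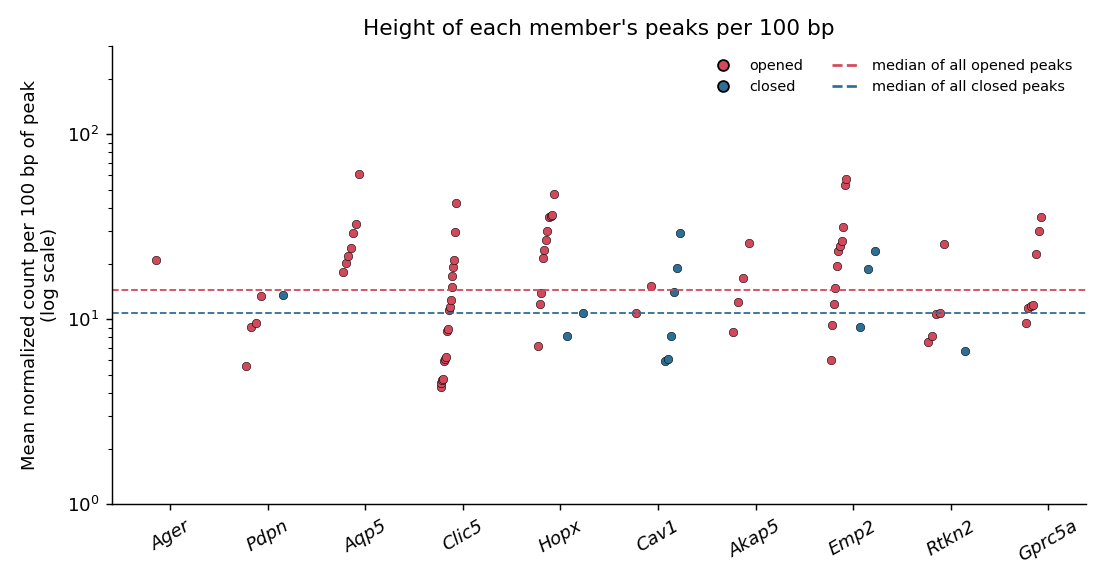
Points are single peaks, grouped by gene, with the mean normalized count per 100 bp of peak on a log axis. Opened peaks are red and closed peaks blue, and dashed lines mark the medians of all opened (14.4) and all closed (10.8) peaks in the lists. The promoter peaks of *Aqp5* and *Emp2* stand highest at 61.2 and 57.2, and 6 of the 13 closed peaks lie under the closed median.

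Among the genes of the caveolae and the cell cortex, *Cav1* encodes the main coat protein of caveolae, the membrane pits that are plentiful in alveolar type 1 cells and also in endothelium. It was divided by position. Both peaks at its start sites were opened, with mean counts of 68.8 at chr6:17306158-17306611 and 13.5 at chr6:17306900-17307023. The 6 peaks further on, from 8.408 to 43.201 kb downstream, were all closed. The highest closed peak of all 10 genes was among them, at chr6:17315822-17316274 with a mean count of 132, and the others ranged from 7.30 to 43.0. *Cav1* held 6 of the 13 closed peaks, and without it 68 of 75 peaks were opened (90.7%). Its neighbours *Cav2*, which encodes a further caveolin, and *Met*, a receptor tyrosine kinase gene, had 4 opened with 1 closed and 16 opened with 2 closed peaks.

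*Clic5* encodes a chloride intracellular channel protein that ties the membrane to the actin cortex. It had the most peaks of the 10 genes, 18, and all were opened, a number that only 0.829% of protein-coding genes reached. They spanned 307.521 kb, with 3 upstream of the start site, 10 in the gene body and 5 beyond its end, and none within 1 kb of the start site. Since the next genes are far away, the density was 5.72 opened peaks per 100 kb of chromosome, below that at *Aqp5*, *Ager*, *Gprc5a*, *Hopx*, *Emp2*, *Akap5* and *Pdpn* but above the 1.498 of the genome. The highest peak lay 50.837 kb downstream in an intron, at chr17:44239004-44239837, with a mean count of 354 and 42.5 per 100 bp. The next was 22.604 kb upstream at chr17:44165719-44166241 with a mean count of 156, and the lowest of the gene, with 3.79, was also the lowest of all 83. The 5 peaks beyond the gene were low, with mean counts of 9.45 to 29.0. *Runx2*, the next gene in that direction, had 5 opened and 14 closed peaks.

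*Akap5* encodes an anchoring protein for protein kinase A. Neither this gene nor *Rtkn2* had a peak within 1 kb of a start site. All 4 *Akap5* peaks were opened and lay upstream, within introns of the neighbouring gene *Mthfd1*, with mean counts of 198 (chr12:76318448-76319218, 6.058 kb upstream), 81.7, 63.1 and 9.19. *Mthfd1* itself was assigned 1 peak, which was opened, and these data do not tell which of the genes a site serves. *Rtkn2* had 5 opened peaks and 1 closed peak. Its highest was 78.306 kb downstream of the nearest start site, at chr10:68057697-68058344 near the end of the gene, with a mean count of 166. It counts as an intron in the basic annotation and as a UTR in the full one. The other opened peaks were low with 13.1 to 29.1. The closed peak, with a mean count of 23.2, lay 28.943 kb upstream and 984 bp from an opened one.

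*Hopx* encodes a small homeodomain protein that does not bind DNA itself and acts through partner proteins. It was the member with a nuclear role, and it had 11 opened and 2 closed peaks. The promoter peak at chr5:77114801-77115408 had a mean count of 216. Upstream stood 7 opened peaks between 11.505 and 39.986 kb, with mean counts of 149, 73.2, 103, 59.9, 118, 177 and 309 in order of distance. The farthest, at chr5:77154781-77155432, was the highest of the gene at 47.4 per 100 bp, and its central window held 2 TEAD cores. All 7 lie nearer to the start of a non-coding gene, and with start sites of every gene type 2 of the 13 peaks stay with *Hopx*. The same change leaves 13 of 18 peaks with *Clic5*, without the 5 beyond the gene, 6 of 14 with *Emp2*, 5 of 8 with *Cav1*, 2 of 6 with *Rtkn2* and 1 of 4 with *Akap5*. An intronic peak 5.024 kb downstream had a mean count of 144. The closed peaks, 4.598 and 12.286 kb downstream, were low with mean counts of 18.0 and 16.2. The median height of its opened peaks, 26.8 per 100 bp, was above that of the other 9 genes, which ranged from 9.34 for *Pdpn* to 24.4 for *Aqp5*.

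Of the 73 pairs of neighbouring peaks of 1 gene, 9 joined an opened and a closed peak, with gaps from 138 to 21661 bp. The genes next to the 10 members, 20 in all, were assigned 126 peaks, of which 84 were opened (66.7%, Wilson interval 58.1 to 74.3%). Of these flanking genes, 13 had more opened peaks, 4 more closed ones, 2 equal numbers and 1 none. The opened share of the flanking genes thus lay between that of the members and the background.

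Motif cores were searched as exact strings on either strand in the central 200 bp of each peak, for 8 factor families known from lung epithelium or Notch signaling. In peaks narrower than 200 bp this window ran past the peak ends, so a match can lie outside the peak. The TEAD family was searched with the core CATTCC, the AP-1 family with TGACTCA and the FOX family with TGTTTAC. For the NKX2 factors the letters were CACTTGA, and for the NFI factors they were TTGGCA. The core of the GATA family was taken to be AGATAAG, and that of RBPJ, the DNA-binding partner of Notch, was taken to be GTGGGAA. The KLF family was searched with GGGTGTGG. The reverse complement of each core was counted too. No core lies within another, but a TEAD and an RBPJ match can share bases. A match is a run of letters and not a bound site, and a short core misses sites that a score matrix would accept.

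The TEAD core was found in 14 of the 70 opened peaks, or 20% (Wilson interval 12.3 to 30.8%), beside 18.2% of all opened peaks. Over whole peaks it was in 20, in 7 of the 10 genes, with 5 each at *Clic5* and *Emp2*, 4 at *Hopx*, 2 each at *Akap5* and *Gprc5a* and 1 each at *Cav1* and *Rtkn2*. The NFI core was in 12 opened peaks (17.1% beside 18.0%), the FOX core in 8 (11.4% beside 6.84%), the RBPJ core in 6 (8.57% beside 5.74%) and the AP-1 core in 5 (7.14% beside 8.45%). The NKX2 core was in 4 (5.71% beside 6.68%), and the GATA and KLF cores were in 3 each (4.29%, beside 3.04% and 3.69%). For each of the 8 cores the share in all opened peaks lay within the interval of the members' share, so no core set the opened peaks of these genes apart from the list at this number of peaks.

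In the central windows of the 13 closed peaks the AP-1 core was found in 4, or 30.8% (Wilson interval 12.7 to 57.6%), beside 21.2% of all closed peaks. The *Hopx* window at chr5:77090572-77090737 was 1 of these, and its match lay outside the peak, which is 166 bp wide. The NFI core was in 3 (23.1% beside 13.4%), the KLF core in 2 (15.4% beside 2.33%), and the TEAD and FOX cores were in 1 each (7.69%, beside 8.77% and 9.71%). The KLF share has a Wilson interval of 4.33 to 42.2% and rests on 1 peak each of *Cav1* and *Rtkn2*. The NKX2, GATA and RBPJ cores were in 0 of 13, which allows a share of up to 22.8% by the Wilson interval. Over whole peaks the AP-1 core was in 5 closed peaks, 1 at each of *Pdpn*, *Hopx*, *Cav1*, *Emp2* and *Rtkn2*. The RBPJ core was then in 1, at *Cav1*.

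**Figure D4:**
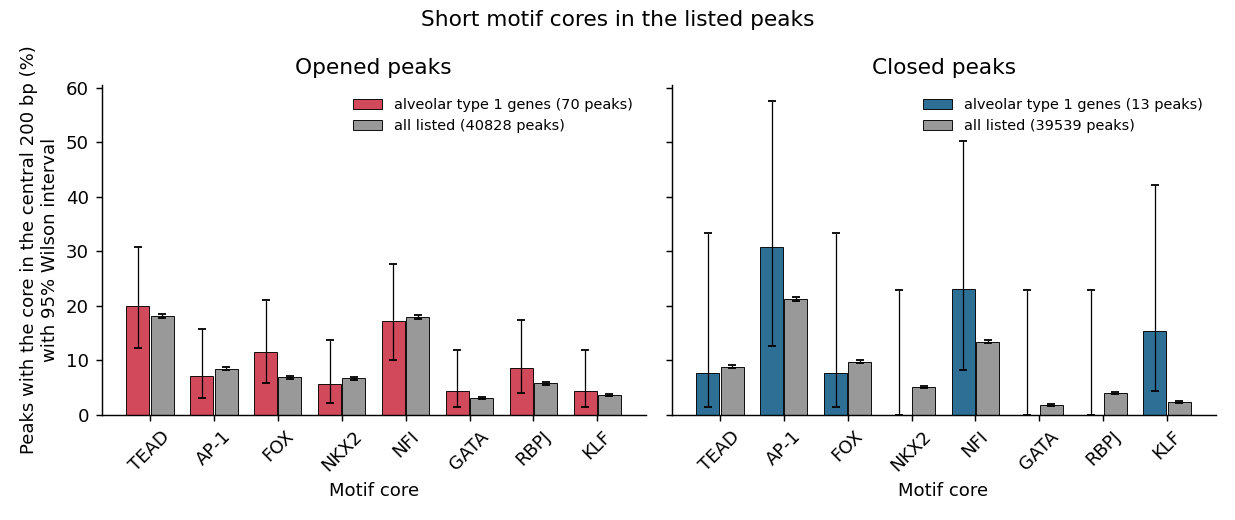
Bars give the percentage of peaks with each motif core in the central 200 bp, on the left for opened and on the right for closed peaks, in color for the alveolar type 1 genes and in grey for all listed peaks, with 95% Wilson intervals as error bars. The TEAD bars for opened peaks stand at 20% and 18.2%, and the wide error bars on the right reflect the 13 closed peaks.

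Other gene lists place the 10 genes among lung cell types. A further list of 13 genes of alveolar type 1 cells had 121 of 191 peaks opened (63.4%, Wilson interval 56.3 to 69.9%), beside 84.3% for the 10 members. With peaks at most 100 kb from a start site the shares were 79.1% and 83.5%, so the distance limit took up most of that gap. Of these 13 genes, 9 had more opened than closed peaks, 7 had an opened promoter peak and *Spock2* had a closed one. *Igfbp2*, with 0 opened and 2 closed peaks, and *Spock2*, with 1 and 3, had more closed peaks. *Lmo7*, a cell junction gene with 18 opened and 26 closed peaks, and *Flrt3*, an adhesion gene with 13 and 30, held most of the closed ones, while *Vegfa*, the growth factor gene by which these cells signal to capillaries, had 30 opened and 0 closed peaks. Regulators of alveolar type 1 cells had 72 of 114 peaks opened (63.2%, 54.0 to 71.4%), with 14 opened and 23 closed at *Klf5*, 23 and 7 at *Tead1*, and 15 and 7 at *Gata6*.

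Peaks of alveolar type 2 and club cell genes were also mostly opened, so these lists shared the direction. Alveolar type 2 genes had 41 of 55 peaks opened (74.5%, Wilson interval 61.7 to 84.2%) and club cell genes 42 of 54 (77.8%, 65.1 to 86.8%), and both intervals overlap that of the 10 members. Opened and closed peaks numbered 11 and 5 at *Slc34a2*, 6 and 6 at *Etv5*, 6 and 0 at *Sftpb* and 5 and 1 at *Abca3*. *Lyz2* had 0 and 2, and 8 of the 10 type 2 genes had more opened peaks. At the club cell genes they numbered 12 and 3 at *Scgb1a1*, 11 and 4 at *Cldn10* and 5 and 4 at *Aldh1a1*. NE genes ran the other way, with 9 of 77 peaks opened (11.7%, 6.27 to 20.7%), 0 of 28 at *Insm1*, 1 of 12 at *Ddc* and 8 of 14 at *Chga*. An opened promoter peak was found at 7 of 10 alveolar type 2 genes, 6 of 7 club cell genes and 0 of 10 NE genes, where 8 had a closed one. The sorted populations thus carried the labelled difference in NE genes.

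Genes of cells outside the epithelium are given beside this because several members, such as *Cav1* and *Pdpn*, are not restricted to alveolar type 1 cells. Endothelial genes had 20 of 74 peaks opened (27.0%, Wilson interval 18.2 to 38.1%), with 2 of 25 at *Cdh5*, 7 of 18 at *Kdr* and 2 of 11 at *Vwf*. *Cdh5* alone held 23 of the 54 closed peaks. Of the 8 genes, 2 had more opened than closed peaks, *Tie1* with 3 of 3 opened and *Cldn5* with 3 of 5. With peaks at most 100 kb from a start site the endothelial share was 43.9%. Leukocyte genes had 14 of 23 opened (60.9%, 40.8 to 77.8%), of which *Ptprc* held 11, while *Laptm5* had 0 of 4, *Cd68*, *Csf1r* and *Cd3e* had 1 opened peak each and *Itgam* and *Tyrobp* had no listed peak. Within 100 kb the leukocyte share was 30% of 10 peaks, a number too small to place it against a background. Fibroblast genes had 10 of 23 opened (43.5%, 25.6 to 63.2%), with 3 of 9 at *Dcn*, 7 of 7 at *Col1a1* and 0 of 5 at *Pdgfra*, and 4 of the 8 genes had no listed peak. Within 100 kb the fibroblast share was 56.25% of 16 peaks. Per the study's methods, cells were stained for surface markers of leukocytes, endothelium and red cells before the sort, and a gate on these would remove such cells. Their part in the counts of the members was not tested.

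**Figure D5:**
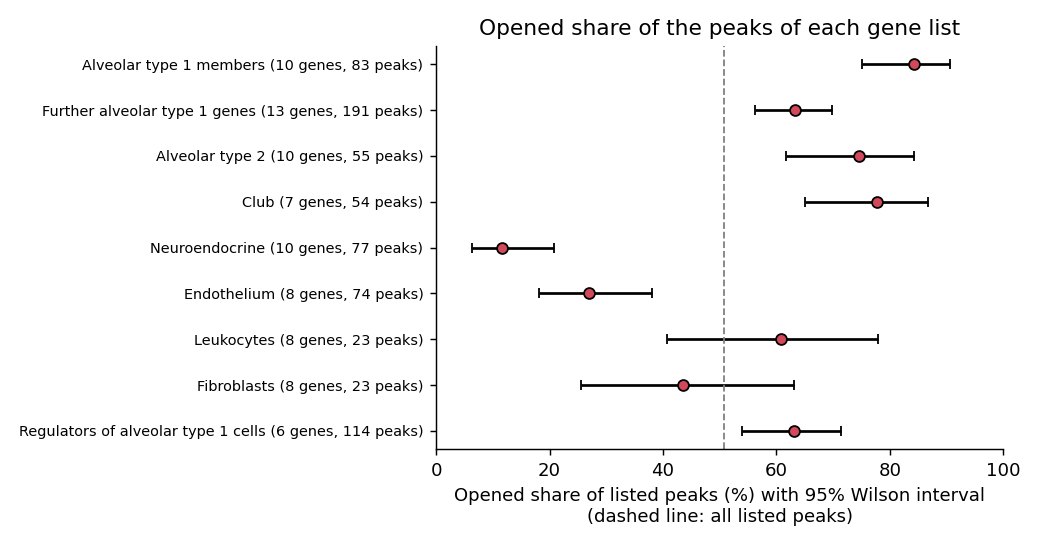
Points give the opened share of the listed peaks of each gene list in percent, with 95% Wilson intervals as horizontal bars, and the dashed line marks all listed peaks (50.8%). The 10 alveolar type 1 genes stand furthest to the right at 84.3%, with club and alveolar type 2 genes next at 77.8% and 74.5%, and NE genes furthest to the left at 11.7%.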

How the data were processed

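ATAC-seq libraries of GFPhigh and GFPneg SCLC cells were compared by the authors, and the 16 runs were grouped here by the reporter status in the labels. Per the paper's methods and the submitters' processing notes, reads were trimmed, aligned to mm10 with Bowtie2 2.3.4.1, cleared of duplicates with Samtools, called as narrow peaks with MACS2, merged and counted per sample. DESeq2 1.28.1 then gave the lists, with limits of 0.001 on the adjusted p and an absolute log2 fold change over 1. Whether runs of 1 library or of 1 mouse were added up first is not given in the sources used here. As signal, the authors deposited for each peak a mean normalized count over all samples of the comparison, which may be libraries or runs. The authors' log2 fold changes, standard errors, Wald statistics and p-values are also in the lists and were not used, since they are the results of their own comparison. All shares refer to peaks past these limits and not to every accessible site.

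Peaks, given 1-based, were assigned by their centre to the nearest start site of 45065 protein-coding transcripts of the basic GENCODE release M21, with promoter peaks within 1 kb. Sequences came from RefSeq GRCm38.p6. Python 3.11.15, numpy 2.4.6, pandas 2.3.3, scipy 1.17.1 and pysam 0.24.0 were used, and the assignment and motif counts were tested on simulated data. Wilson intervals have a level of 95%. No test was run, for want of values per library.

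The 10 genes and all lists were chosen with earlier results of these data known. All 10 genes were named, with their promoter peaks and their opened and closed peaks of highest count, as were the 3 genes with most peaks of each other list. Further peaks, flanking genes, ties and further genes of the lists were named after their values were seen. Alternatives were other start sites and distances, count minimums, merged peaks, leaving out each gene, and other motif windows.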

Additional observations from a re-analysis of the deposited data

How the results depend on the processing

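Of 17 alternatives for the opened share of the 10 genes, 15 kept it within its Wilson interval. It was 91.9% with mean counts of at least 50 and 90.7% without *Cav1*, and 80.0% without *Clic5*. Start sites of genes of every type left 49 of the 83 peaks, since non-coding genes then took the rest, and 89.8% of these were opened. The other 4 assignments gave 58 to 90 peaks. The number of genes with an opened promoter peak was 6 with 500 bp, 7 with 3 kb and 5 with mean counts of at least 20. All 24 motif alternatives stayed within the intervals. For the other gene lists, 12 of 16 alternatives stayed within theirs. With peaks at most 100 kb from a start site, the further alveolar type 1 genes moved to 79.1%, endothelium to 43.9%, leukocytes to 30% and regulators to 71.8%. No paired analysis was possible because the lists hold no value per library, and for the same reason no library or pair could be left out. A mean normalized count does not show the depth or spread of the libraries behind it, and the nearest start site does not show which gene a site serves.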
